A study of Rattus norvegicus with 9 samples.

Results

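Plasma carrier proteins are made by hepatocytes and secreted into blood, where they bind hormones, vitamins, lipids and mineral that would otherwise be lost or insoluble. Several of them are known as negative acute phase proteins, because their plasma level falls while the liver turns to making inflammatory plasma proteins. The genes described here are Alb, Ttr, Rbp4, Afm, Ahsg, Gc and Serpina7. They were taken as all probe sets whose platform gene symbol is one of these 7 names, which gave 9 of the 15866 probe sets that are not controls, 2 each for Alb and Gc and 1 for each other gene. They are 7 of the 10411 genes that the array names by a single symbol. A further 1 probe set carries several symbols, a member's among them, and was not used. All 9 lay above the signal floor on every array and were tested.

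Total RNA from whole livers of rats was hybridised to 9 arrays with a single dye, 3 in each of 3 groups. By the sample titles, Burn-CLP combined a burn with CLP, Sham-CLP combined a sham procedure with CLP, and Sham-Sham is the control with a sham procedure in place of each. The labels leave CLP unexplained; among rodent models the letters usually mean cecal ligation and puncture, which causes an abdominal infection. Strain, sex, age, burn size and times are not given in the sources used here. Nothing says that each array was a different animal, so p-values reflect array-to-array spread within groups, part or all of which could be technical.

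The deposited signals had been scaled to a trimmed mean of about 500.1 to 500.2 on each array, while array medians ran from 205 to 268.1. Sham-Sham 1 was least like the rest: its correlations with the remaining 8 averaged 0.902, where each of those averaged 0.937 to 0.958. Hepatocyte markers were bright in all groups: the summed normalized signal of the 9 measured markers was 127890 to 135639 in Burn-CLP, 104630 to 124379 in Sham-CLP and 94992 to 108350 in Sham-Sham, and 0 of the 9 passed the test in any comparison. In Burn-CLP against Sham-Sham 6 of the 9 estimates were positive and 3 negative, with a median of 0.25, and Tat (1.66) and Tdo2 (0.83) were the largest. In bulk liver RNA, a change in hepatocyte number and a change in RNA per hepatocyte cannot be told apart. The 4 measured neutrophil markers summed to 488 to 1286 in Burn-CLP, 316 to 489 in Sham-CLP and 216 to 312 in Sham-Sham, and their part in the results below was not tested. Among these 4, S100a9, which encodes a calprotectin subunit abundant in neutrophils, rose by 2.80 in Burn-CLP against Sham-Sham (adjusted p = 0.0239, limma), with 2 Sham-Sham values at the floor. Dcn, the decorin gene and 1 of 6 stellate cell and fibroblast markers, rose by 1.48 (adjusted p = 0.0239, limma). Of those 6 markers, however, 4 had negative estimates in Burn-CLP against Sham-Sham, and their median log2 change was -0.22. Apart from S100a9 and Dcn, no marker passed in any comparison.

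Alb, Afm and Gc belong to the albumin family, and in the GRCr8 annotation they lie on chromosome 14. Afm and Alb are separated there by 1 protein-coding gene, the fetal albumin homologue Afp, and Gc lies 4 protein-coding genes from Alb. RefSeq promoter windows (GRCr8) were at hand for 6 of the 7 genes, all but Afm. The 200 bases before the annotated start are shown for Alb and Gc, whose brighter probe sets had nearly equal quantile normalized signals in all groups. They are also shown for Ttr and Serpina7, whose signals were lower in Burn-CLP than in Sham-Sham. The dimmer Alb probe set and Ahsg were lower there as well, and the windows of Ahsg and Rbp4 are not shown. Whether promoter letters go with the signals was not tested. Capitals mark matches to GTTAATNAT, the core of an HNF1 site, and to TTNNGCAA, a loose C/EBP site. HNF1 and C/EBP proteins are hepatocyte transcription factors long known to act on the albumin promoter.
Alb, chr14:17906980-17907179, minus strand: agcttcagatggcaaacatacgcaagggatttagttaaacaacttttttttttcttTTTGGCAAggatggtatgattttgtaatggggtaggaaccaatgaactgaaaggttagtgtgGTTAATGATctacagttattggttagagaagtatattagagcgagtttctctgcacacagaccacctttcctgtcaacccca
Gc, chr14:18916055-18916254, plus strand: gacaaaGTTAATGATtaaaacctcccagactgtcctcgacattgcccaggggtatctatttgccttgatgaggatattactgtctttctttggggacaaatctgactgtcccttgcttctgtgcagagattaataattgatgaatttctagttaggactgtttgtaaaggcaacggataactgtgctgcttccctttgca
Ttr, chr18:12218558-12218757, plus strand: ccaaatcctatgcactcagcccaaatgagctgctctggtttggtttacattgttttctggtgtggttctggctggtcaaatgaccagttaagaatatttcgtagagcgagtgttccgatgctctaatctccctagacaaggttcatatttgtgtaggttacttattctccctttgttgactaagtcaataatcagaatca
Serpina7, chrX:107457682-107457881, minus strand: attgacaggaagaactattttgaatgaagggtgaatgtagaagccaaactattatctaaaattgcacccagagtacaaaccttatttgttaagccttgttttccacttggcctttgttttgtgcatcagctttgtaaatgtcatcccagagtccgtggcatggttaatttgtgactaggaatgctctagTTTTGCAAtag

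Both strands of the 250 bases before each start were searched, and the letters were chosen after the sequences had been seen. GTTAATNAT stood in the promoters of Alb (bases 82 to 74 before the start) and Gc (194 to 186), 2 of the 6, and in 0.666% of 33469 rat promoters. TTNNGCAA stood in 4 of the 6, those of Alb, Ahsg, Rbp4 and Serpina7, and in 9.22% of all promoters. A STAT-type site, TTCNNNGAA, stood in 0 of the 6 and in 7.67% of all, and TATAAA stood in 1, that of Rbp4, and in 12.9% of all. A match describes these letters only and is not evidence of binding. No match means only that the letters are not in this window.

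No carrier protein probe set passed the test in any comparison, and the sizes of their estimated differences varied. Afm signal in Burn-CLP liver was 0.508 of that in Sham-Sham liver, Serpina7 was 2.85-fold lower, and Ttr was 1.27-fold lower. For these genes, and also for Ahsg and the dimmer Alb probe set, every Burn-CLP array lay below every Sham-Sham array. After normalization 10.7% of all tested probe sets did so. Alb, Rbp4, Ahsg and the brighter Gc probe set differed by at most 0.18 on the log2 scale in that comparison, after a normalization that by construction holds the brightest probe set of an array, here often Alb, at a fixed value. These probe sets ranked 47th or brighter on every array, and whether signals this bright still follow RNA amount was not tested. The dimmer Gc probe set read higher in both CLP groups. These folds come from limma on quantile normalized log2 signals, and signals given array by array are the deposited ones, in the order of replicates 1, 2 and 3.

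**Figure D1:**
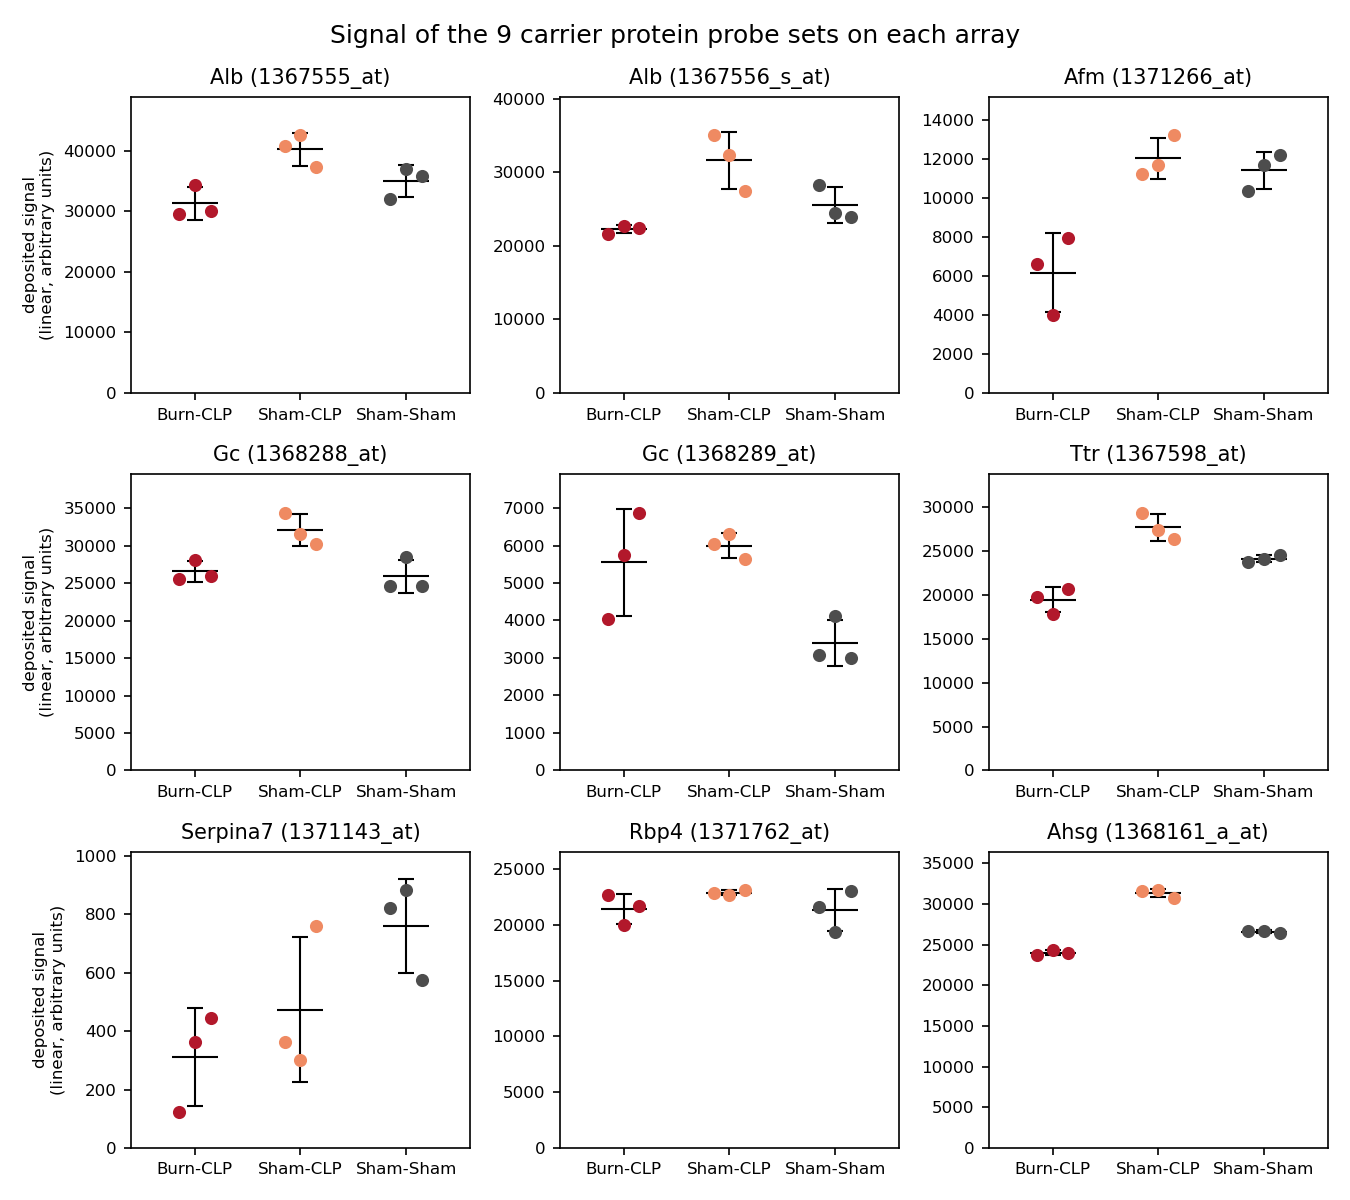
Deposited signal (linear scale, arbitrary units) of each carrier protein probe set on the 9 arrays, 1 panel per probe set. Points are arrays, the wide bar is the group mean and whiskers are 1 SD (n = 3). Afm reads 3979.7 to 7922.3 in Burn-CLP, below all 6 other arrays, while Rbp4 overlaps among the groups.

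In Burn-CLP against Sham-Sham, 0 of the 9 passed limma's test at an adjusted p under 0.05, where 0.746% of the 13535 tested probe sets did. At an unadjusted p under 0.05 there were 3 of 9 (Afm, Serpina7 and the dimmer Gc probe set), against 19.9% of all tested. In 5 of 9 the Burn-CLP signals lay wholly below the Sham-Sham signals, under quantile normalization as well as with the deposited scaling, where 10.7% and 10.2% of all tested probe sets did. The median log2 change of the 9 was -0.16, beside 0.01 for all tested. In Sham-CLP against Sham-Sham 0 of 9 passed (0.0591% of all tested did) and 1 of 9 had an unadjusted p under 0.05, against 11.7%. In Burn-CLP against Sham-CLP 0 of 9 passed (0.0148% of all) and 1 of 9, Afm, had an unadjusted p under 0.05, against 9.09%. In that comparison 3 of 9 lay wholly below after normalization (9.54% of all tested did) and 6 of 9 with the deposited scaling (7.61%). The 3 comparisons share arrays in pairs, so their values stand side by side and are not independent.

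Afm encodes afamin, a plasma glycoprotein that carries vitamin E and keeps lipid-modified Wnt proteins soluble. Its deposited signal was 6616.8, 3979.7 and 7922.3 in Burn-CLP, 11221.6, 11673 and 13213.3 in Sham-CLP, and 10348.7, 11694.9 and 12204.5 in Sham-Sham. Every Burn-CLP array lay below all 6 others, Burn-CLP 2 lowest, and the Sham-CLP and Sham-Sham arrays overlapped. Of all tested probe sets, 10.2% had deposited signals wholly lower in Burn-CLP than in Sham-Sham, and 7.61% than in Sham-CLP. After normalization the Afm means were 6335 ± 2023 in Burn-CLP, 11210 ± 1604 in Sham-CLP and 12006 ± 465 in Sham-Sham (SD, n = 3 each).

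The log2 change of Afm was -0.98 ± 0.25 (SE) in Burn-CLP against Sham-Sham, with a 95% interval from -1.53 to -0.42 and an adjusted p of 0.0914 (limma). Among 13535 probe sets its p-value was the 436th smallest. Against Sham-CLP the Burn-CLP change was -0.87 ± 0.25 (interval -1.42 to -0.32, adjusted p = 0.363, limma), and here its p was the 221st smallest. Sham-CLP differed from Sham-Sham by -0.11 ± 0.25 (interval -0.66 to 0.45, adjusted p = 0.885, limma). With an intensity trend and robust variance shrinkage, the Burn-CLP change against Sham-Sham passed (adjusted p = 0.0364, limma). Over the other alternatives its adjusted p ran from 0.057 to 0.224, the highest without Burn-CLP 2, where the change was -0.70. Without Sham-Sham 1 it was 0.155.

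Alb encodes serum albumin, the most abundant plasma protein and a carrier of fatty acids, bilirubin, hormones and metals. At its brighter probe set the signal was 29511, 34407.8 and 29970.1 in Burn-CLP, 40813.3, 42575 and 37253.5 in Sham-CLP, and 31990.8, 37055.3 and 35826.6 in Sham-Sham. On the deposited scale the Sham-CLP arrays were highest. They lay above all Sham-Sham arrays (7.18% of all tested probe sets did) and above all Burn-CLP arrays (7.61% did). Burn-CLP overlapped Sham-Sham. This probe set ranked 1st to 3rd in signal on every array, however, and quantile normalization gives equal ranks equal values. Its normalized means were therefore 35039 ± 1143 in Burn-CLP, 34754 ± 1637 in Sham-CLP and 35039 ± 1143 in Sham-Sham (SD, n = 3 each), which leaves little room for a difference. Its log2 change in Burn-CLP against Sham-Sham was 0.00 after quantile normalization, -0.16 with the deposited scaling (adjusted p = 0.603, limma) and -0.15 with cyclic loess (adjusted p = 0.595, limma). In Sham-CLP against Sham-Sham it was -0.01, 0.20 and -0.10 under the same settings, so its direction there depended on the scaling.

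The dimmer Alb probe set read 21638.1, 22673.8 and 22446.5 in Burn-CLP, 35071.6, 32380.4 and 27500.4 in Sham-CLP, and 28333.8, 24425.7 and 23950.2 in Sham-Sham. Burn-CLP lay below both other groups, which overlapped. It ranked 21st to 27th in Burn-CLP, 6th to 14th in Sham-CLP and 6th to 16th in Sham-Sham, ranks that no scaling of an array can change. Normalized values closely follow these ranks, which leave out the control probe sets that the normalization included. After normalization 10.7% of all tested probe sets were wholly lower in Burn-CLP than in Sham-Sham, and 9.54% than in Sham-CLP. Its log2 change was -0.18 ± 0.15 in Burn-CLP against Sham-Sham (interval -0.52 to 0.15, adjusted p = 0.516, limma) and -0.25 ± 0.15 against Sham-CLP (interval -0.58 to 0.09, adjusted p = 0.68, limma).

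Gc encodes the vitamin D binding protein, which carries vitamin D metabolites and also binds actin released from damaged cells. Its brighter probe set read 25610.1, 28124 and 25923.8 in Burn-CLP, 34406.1, 31572.8 and 30204.2 in Sham-CLP, and 24624, 28495.4 and 24652.5 in Sham-Sham. Burn-CLP and Sham-Sham overlapped. Sham-CLP lay above Sham-Sham (7.18% of all tested probe sets did) and above Burn-CLP (7.61% did). After normalization the change was 0.04 ± 0.14 in Burn-CLP against Sham-Sham (interval -0.29 to 0.36) and 0.02 ± 0.14 in Sham-CLP against Sham-Sham (interval -0.30 to 0.34).

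The dimmer Gc probe set read 4034.5, 5747.1 and 6877 in Burn-CLP, 6050.9, 6295.6 and 5643 in Sham-CLP, and 3088, 4118.7 and 3005.9 in Sham-Sham. All 3 Sham-CLP arrays lay above all Sham-Sham arrays (7.18% of all tested probe sets did), while Burn-CLP 1 fell just under Sham-Sham 2. The change was 0.65 ± 0.23 in Burn-CLP against Sham-Sham (interval 0.14 to 1.17, adjusted p = 0.176, limma) and 0.67 ± 0.23 in Sham-CLP against Sham-Sham (interval 0.15 to 1.18, adjusted p = 0.35, limma). The probe sets of Gc thus disagreed on the size of the difference. Within an array the signal of the dimmer set was 0.158, 0.204 and 0.265 of the brighter one in Burn-CLP, 0.176, 0.199 and 0.187 of it in Sham-CLP, and 0.125, 0.145 and 0.122 of it in Sham-Sham. With these deposited signals the ratio was higher on all 6 CLP arrays than on the 3 Sham-Sham arrays. How often ratios between other probe sets separate in this way was not counted, so how ordinary this is cannot be said. With quantile normalized signals the log2 of this Gc ratio averaged -2.35 ± 0.41 in Burn-CLP, -2.32 ± 0.09 in Sham-CLP and -2.96 ± 0.23 in Sham-Sham (SD, n = 3 each). Burn-CLP then overlapped Sham-Sham, and Sham-CLP still lay above it.

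Ttr encodes transthyretin, which carries thyroxine and also binds the retinol-loaded RBP4 protein, keeping it from loss through the kidney. Its signal was 19762.8, 17864.5 and 20672.3 in Burn-CLP, 29370.6, 27399.7 and 26346.7 in Sham-CLP, and 23723.2, 24125.8 and 24580.8 in Sham-Sham. The Burn-CLP arrays lay below all others. Sham-CLP lay above Sham-Sham on the deposited scale but below it after normalization. Its rank ran from 34 to 57 in Burn-CLP, from 19 to 22 in Sham-CLP and from 13 to 17 in Sham-Sham, without overlap between any of the groups. Normalized values closely follow the ranks, so this mostly repeats the normalized layout. After normalization 10.7% of all tested probe sets were wholly lower in Burn-CLP than in Sham-Sham. The shares were 8.88% in Sham-CLP against Sham-Sham and 9.54% in Burn-CLP against Sham-CLP. The log2 change was -0.34 ± 0.15 in Burn-CLP against Sham-Sham (interval -0.68 to 0.0010, adjusted p = 0.253, limma), -0.08 ± 0.15 in Sham-CLP against Sham-Sham (adjusted p = 0.85, limma) and -0.26 ± 0.15 in Burn-CLP against Sham-CLP (adjusted p = 0.662, limma).

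Serpina7 encodes thyroxine-binding globulin, a serpin without protease inhibitor activity that carries thyroid hormone. The signal was 123.2, 363.8 and 445.6 in Burn-CLP, 362.4, 299.9 and 759.2 in Sham-CLP, and 820.5, 882.6 and 575.8 in Sham-Sham. All Burn-CLP arrays lay below all Sham-Sham arrays, where 10.2% of all tested probe sets did with deposited signals and 10.7% after normalization. The Sham-CLP arrays overlapped both groups. The log2 change was -1.51 ± 0.49 in Burn-CLP against Sham-Sham (interval -2.62 to -0.41, adjusted p = 0.153, limma), -0.72 ± 0.49 in Sham-CLP against Sham-Sham (adjusted p = 0.573, limma) and -0.79 ± 0.49 in Burn-CLP against Sham-CLP (adjusted p = 0.689, limma). Without Burn-CLP 1, the lowest array, the first of these was -0.92 (adjusted p = 0.291, limma).

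Rbp4 encodes the plasma retinol binding protein that brings vitamin A from liver stores to other tissues. It read 22650.9, 19960.1 and 21653.4 in Burn-CLP, 22807.2, 22646.8 and 23098 in Sham-CLP, and 21607.4, 19343.3 and 23010.1 in Sham-Sham, with overlap among all groups. The change in Burn-CLP against Sham-Sham was -0.02 ± 0.17 (interval -0.40 to 0.35), and no comparison had an adjusted p under 0.762 (limma).

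Ahsg encodes fetuin-A, which binds calcium phosphate in plasma and prevents its deposition in soft tissue. The signal was 23728.9, 24314.1 and 23971.7 in Burn-CLP, 31639.8, 31691.5 and 30736.4 in Sham-CLP, and 26625.3, 26716.6 and 26435.6 in Sham-Sham. The groups did not overlap on the deposited scale, with Sham-CLP highest and Burn-CLP lowest. On that scale 10.2% of all tested probe sets were wholly lower in Burn-CLP than in Sham-Sham and 7.61% than in Sham-CLP. Wholly higher in Sham-CLP than in Sham-Sham were 7.18%. After normalization Ahsg in Burn-CLP still lay below Sham-Sham (10.7% of all tested did), but the Sham-CLP arrays overlapped both groups. The log2 change was -0.16 ± 0.14 in Burn-CLP against Sham-Sham (interval -0.48 to 0.17, adjusted p = 0.563, limma).

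The scaling mattered most for Sham-CLP. With the deposited scaling, 5 of the 9 probe sets lay wholly above Sham-Sham in Sham-CLP (7.18% of all tested did) and their median log2 change was 0.20. After quantile normalization 1 of 9 lay above (8.36% of all tested did) and 1 below (8.88%), and the median was -0.05. The same shift was seen beyond the carrier proteins: of the 50 brightest probe sets on the arrays, 49 were higher in Sham-CLP than in Sham-Sham with the deposited scaling, with a median of 0.27, while over all tested probe sets the median was -0.08. Quantile normalization brought the median of those 50 to -0.0018. In Burn-CLP against Sham-Sham the scalings gave nearly the same median for the 9 probe sets, -0.16 each.

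**Figure D2:**
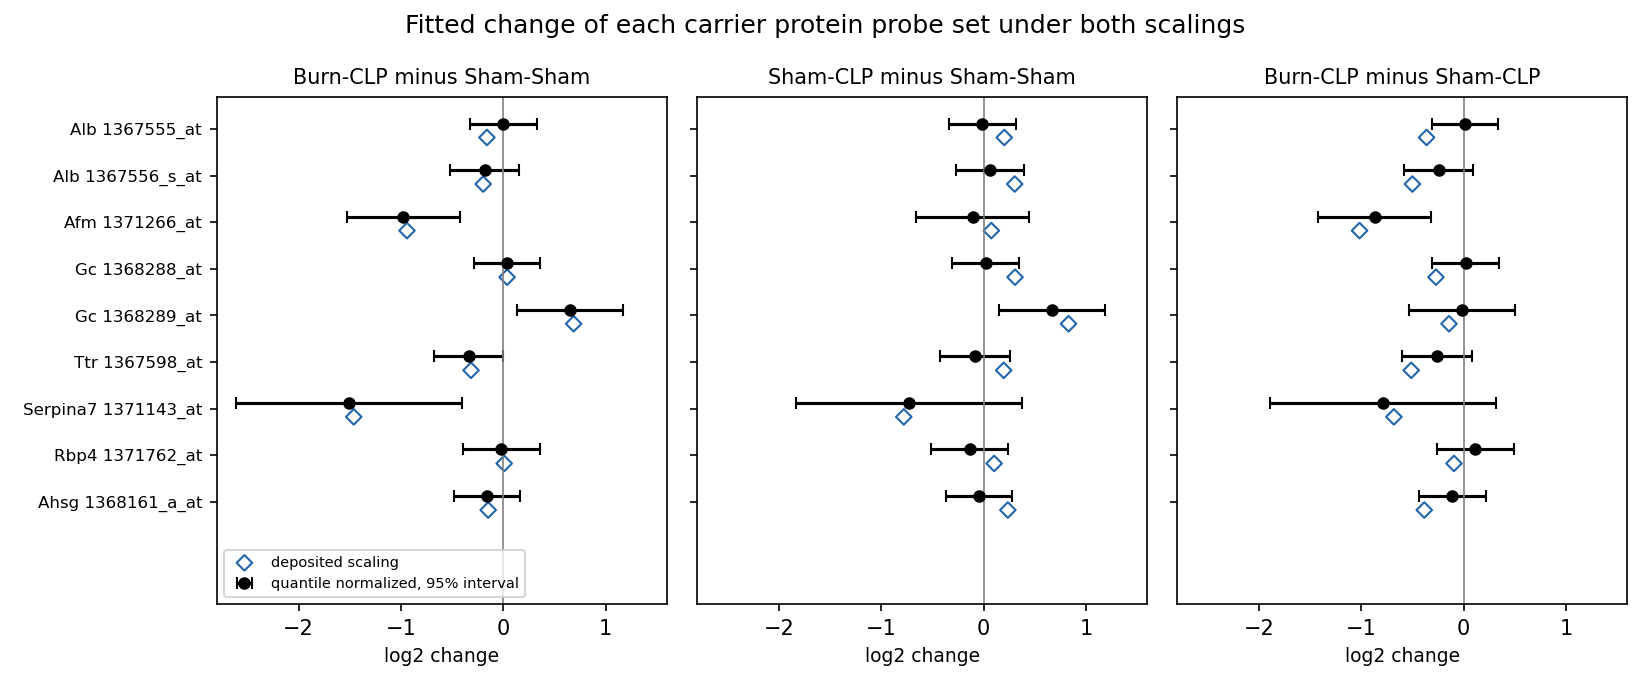
Log2 change of each carrier protein probe set in the 3 comparisons (x axis, log2 scale). Filled circles with bars are limma estimates with 95% intervals after quantile normalization, and open diamonds are estimates with the deposited scaling. In Burn-CLP minus Sham-Sham, Afm lies at -0.98 and -0.94 under the scalings and the brighter Alb probe set at 0.00 and -0.16, the widest gap of the 9, whereas in Sham-CLP minus Sham-Sham the Alb, Ttr, Ahsg, Rbp4 and Afm diamonds lie above 0 and the circles of Afm, Ttr, Rbp4 and Ahsg below it.

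Ratios within an array do not change when a whole array is multiplied by 1 factor, but quantile normalization changes them. They are therefore given with deposited and with quantile normalized signals. Normalization holds the brighter Alb probe set near a fixed value. A normalized ratio to it therefore mostly repeats the normalized change of the other probe set and is not a separate result. For Afm the Burn-CLP minus Sham-Sham difference of this ratio was -0.98, the same as the change given above. The log2 ratio of Afm to the brighter Alb probe set averaged -2.40 ± 0.63 in Burn-CLP, -1.74 ± 0.21 in Sham-CLP and -1.62 ± 0.06 in Sham-Sham (SD, n = 3 each) with deposited signals. Each Burn-CLP ratio, -2.16, -3.11 and -1.92, lay below the ratios of all other arrays. With normalized signals the means were -2.52 ± 0.54 in Burn-CLP, -1.64 ± 0.17 in Sham-CLP and -1.55 ± 0.04 in Sham-Sham, and Burn-CLP again lay below both other groups. Over all tested probe sets, 4.04% had a deposited ratio to Alb wholly lower in Burn-CLP than in Sham-Sham and 1.00% than in Sham-CLP, and with normalized signals 9.72% and 8.76% did.

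For Ttr the overlap of the ratios differed between the signals used. The deposited log2 ratio of Ttr to Alb overlapped among the groups, at -0.69 ± 0.23 in Burn-CLP, -0.54 ± 0.09 in Sham-CLP and -0.53 ± 0.09 in Sham-Sham. With normalized signals it was -0.71, -0.97 and -0.62 in Burn-CLP, -0.41, -0.55 and -0.53 in Sham-CLP, and -0.38, -0.48 and -0.43 in Sham-Sham, so that Burn-CLP lay below both other groups. Ahsg to Alb overlapped in every pair of groups with deposited signals, and with normalized ones lay wholly lower in Burn-CLP (-0.46 ± 0.10) than in Sham-Sham (-0.30 ± 0.05). The dimmer Alb probe set also overlapped in every pair with deposited signals, and with normalized ones its ratio to the brighter one was wholly lower in Burn-CLP (-0.56 ± 0.09) than in Sham-CLP (-0.30 ± 0.14).

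The brighter Gc probe set had a deposited log2 ratio to Alb of -0.23 ± 0.05 in Burn-CLP, above the -0.43 ± 0.09 of Sham-Sham without overlap, where 19.8% of all tested probe sets were wholly higher. With normalized signals these groups overlapped, at -0.30 ± 0.07 in Burn-CLP and -0.34 ± 0.06 in Sham-Sham. For the dimmer Gc probe set the deposited ratio was -2.53 ± 0.38 in Burn-CLP and -2.74 ± 0.02 in Sham-CLP, both wholly above the -3.37 ± 0.20 of Sham-Sham, where 2.45% of all tested probe sets were wholly higher in Sham-CLP. With normalized signals Sham-CLP still lay above Sham-Sham, and Burn-CLP overlapped it. Serpina7 to Alb averaged -6.85 ± 0.95 in Burn-CLP, wholly below the -5.55 ± 0.36 of Sham-Sham, and overlapped Sham-CLP at -6.53 ± 0.81, and both relations were the same with normalized signals. Rbp4 to Alb overlapped in every pair of groups with either.

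**Figure D3:**
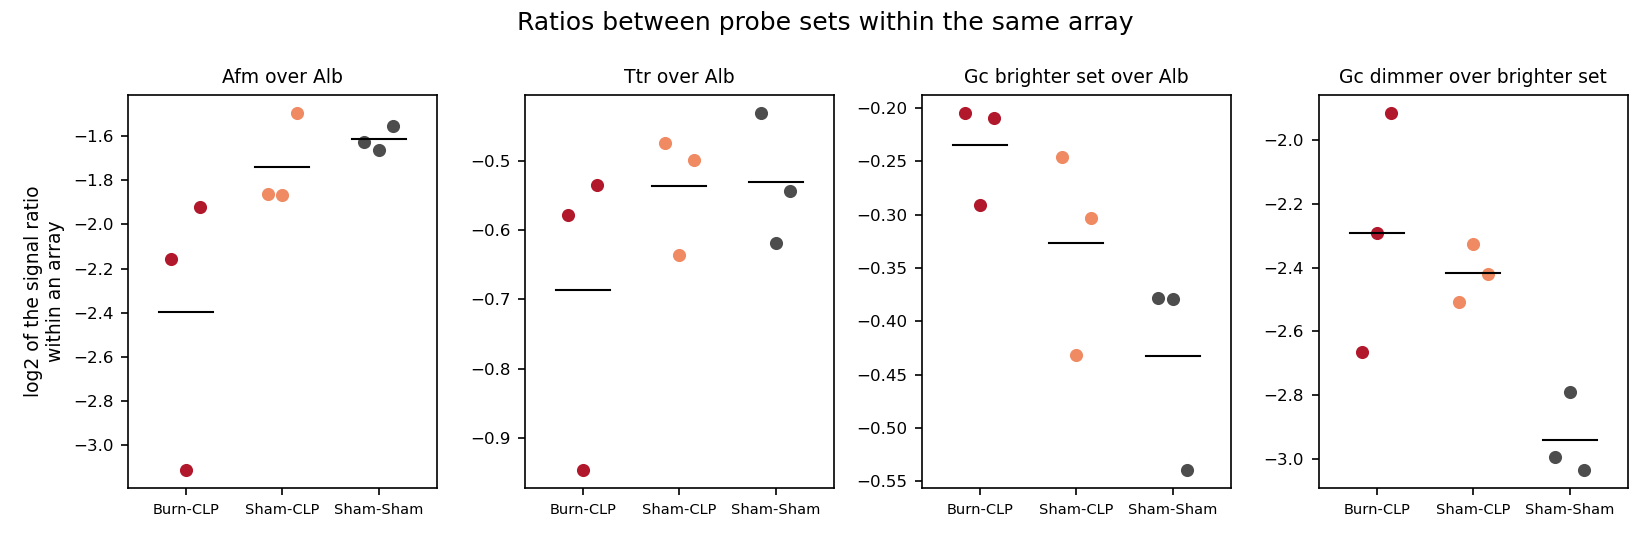
Log2 ratio of deposited signals within an array (y axis, a separate scale in each panel) by group, with points for arrays and a line at the mean of 3. Afm over Alb is lower on all Burn-CLP arrays than on the others, Ttr over Alb overlaps, and the ratio of the dimmer to the brighter Gc probe set is higher on all 6 CLP arrays than on the Sham-Sham arrays. For that Gc ratio no share over other pairs of probe sets was counted. With quantile normalized signals, not drawn here, Ttr over Alb is lower on all Burn-CLP arrays than on the others, and the Gc ratios overlap between Burn-CLP and Sham-Sham.

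The probe sets most alike to each member over the 9 arrays were found by the root mean square (RMS) difference of centred log2 signals, as a description without a test. Nearest to Afm were Cth, the cystathionine gamma-lyase gene (RMS 0.11), Rcan2, a calcineurin regulator gene (0.12), and Sord, the sorbitol dehydrogenase gene (0.14), against a median of 0.60 over all tested probe sets. Their log2 changes in Burn-CLP against Sham-Sham were -1.11 (Rcan2) and -0.78 (Cth) at the ends, and their adjusted p ran from 0.0693 to 0.157 (limma), so none of them passed. Nearest to Ttr were the phosphoinositide kinase gene Pip4k2c (0.042), the adiponectin receptor gene Adipor2 (0.071) and Sec14l2 (0.071), a lipid transfer protein gene. Nearest to Serpina7, at larger distances, were Nectin2 (0.36), the glucagon receptor gene Gcgr (0.38) and Tmub2 (0.40). Ahsg ran closest to the apolipoprotein gene Apoc3 (0.036), Mtfr1l (0.042) and Tmem59 (0.046), and Rbp4 to Ensa (0.056), Mrpl18 (0.057) and Samd4b (0.076). Alb and the brighter Gc probe set were nearly flat after normalization, with an SD of 0.05 each over the 9 arrays, and their neighbours (Arpc3, Morf4l1 and Gli2 for Alb, and Mkrn1, Vtn and Gli2 for Gc) were other flat probe sets.

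Other plasma proteins known to fall in inflammation gave 1 call. Of 10 measured genes, 1 fell and 0 rose in Burn-CLP against Sham-Sham, where 0.746% of all tested probe sets were called in either direction. Of the 10 estimates 8 were negative, with a median of -0.25 beside 0.01 for all tested. Of all tested, 49.1% had an estimate no higher than the 0.00 of the brighter Alb probe set. Igfals, whose protein holds insulin-like growth factors in a stable circulating complex, fell by 3.71 ± 0.62 on the log2 scale (adjusted p = 0.0361, limma) and 2 of its 3 Burn-CLP values were at the floor. Serpina6, the corticosteroid binding globulin gene and a serpin relative of Serpina7, differed by -3.09 ± 0.63 (adjusted p = 0.0591, limma), and Igf1 by -0.71 ± 0.20 (adjusted p = 0.112, limma). In Sham-CLP against Sham-Sham 0 of the 10 passed and the median was 0.03. In Burn-CLP against Sham-CLP 0 passed and the median was -0.34. Afp, the remaining albumin family gene, had a mean signal of 208 ± 123 in Burn-CLP, 298 ± 58.4 in Sham-CLP and 170 ± 115 in Sham-Sham, and no comparison passed for it. In the family of 4 genes (Alb, Afp, Afm and Gc by their brightest probe sets) 0 passed in any comparison.

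On the same arrays, acute phase proteins known to rise gave 5 calls of 20 measured genes in Burn-CLP against Sham-Sham, all higher. Of all tested probe sets 0.746% were called there, in either direction. In Sham-CLP against Sham-Sham 3 of the 20 were called, all higher, where 0.0591% of all tested were. The medians were 0.16 in both. The genes were Lcn2 (iron-siderophore binding lipocalin 2), A2m (the protease inhibitor alpha-2-macroglobulin) and Pla2g2a (a secreted phospholipase A2) in both, with Lbp (lipopolysaccharide binding protein) and Spink1 (a trypsin inhibitor) past the threshold in Burn-CLP. For Lbp, Spink1 and Pla2g2a the difference between the CLP groups did not pass (adjusted p = 0.453, 0.97 and 0.345, limma). Spink1 differed from Sham-Sham by 3.23 ± 0.53 in Burn-CLP and by 3.36 ± 0.53 in Sham-CLP (adjusted p = 0.0354 and 0.0838, limma). Against Sham-Sham, Lcn2 rose by 4.65 ± 0.24 in Burn-CLP (adjusted p = 6.84e-05, limma) and by 4.66 ± 0.24 in Sham-CLP (adjusted p = 6.83e-05, limma), while A2m rose by 4.32 ± 0.33 and 4.18 ± 0.33, and Pla2g2a by 4.71 ± 0.32 and 3.47 ± 0.32. In the same order of groups Afm differed by -0.98 and -0.11.

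**Figure D4:**
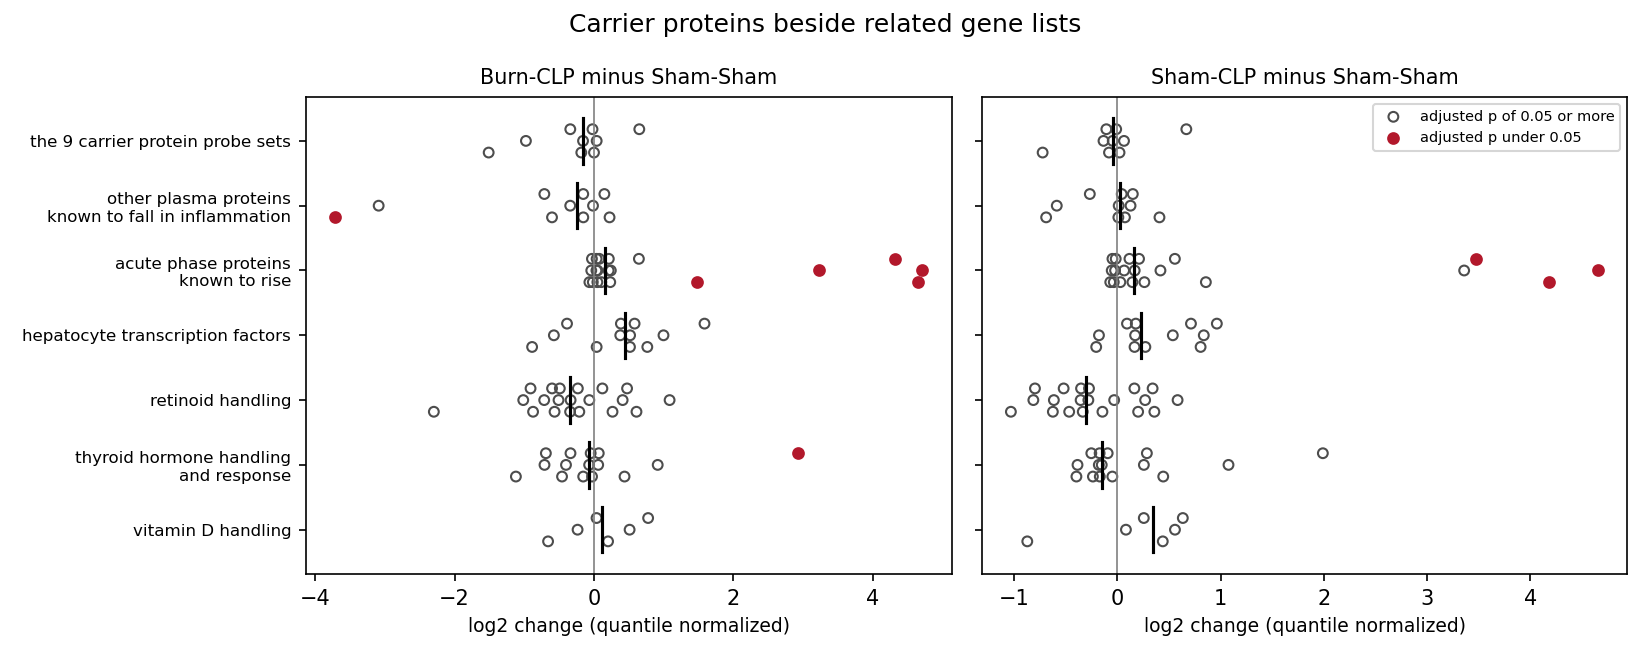
Log2 change (x axis, quantile normalized, a separate scale in each panel) of the carrier protein probe sets and of 6 related gene lists, 1 point per probe set or gene, with a line at each median. Filled points passed an adjusted p of 0.05. The carrier proteins have no filled point, and the acute phase proteins known to rise have 5 in Burn-CLP minus Sham-Sham and 3 in Sham-CLP minus Sham-Sham. Of all tested probe sets 0.746% and 0.0591% passed in these comparisons.

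Genes that handle what these proteins carry were mostly not called. Of 20 retinoid genes 0 passed in any comparison, with a median of -0.34 in Burn-CLP and -0.31 in Sham-CLP against Sham-Sham. The smallest p-values in Burn-CLP belonged to the retinal-forming or retinal-reducing dehydrogenase genes Rdh10 (-0.87 ± 0.23), Dhrs4 (-0.60 ± 0.17) and Dhrs3 (-1.02 ± 0.29), with adjusted p from 0.101 to 0.124 (limma). Of 15 thyroid hormone genes 1 rose and 0 fell in Burn-CLP, where 0.746% of all tested probe sets were called in either direction. It was Slc16a10, a transporter of aromatic amino acids and thyroid hormone (2.92 ± 0.34, adjusted p = 0.00844, limma, 1 Sham-Sham value at the floor). Its change in Sham-CLP was 1.99 ± 0.34 (adjusted p = 0.113, limma). The organic anion transporter gene Slco1a4 differed by -1.12 ± 0.40 and the thyroid hormone responsive Klf9 by 0.91 ± 0.30 in Burn-CLP.

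Of 6 vitamin D genes 0 passed. In Burn-CLP, Cyp27b1, the 1-alpha-hydroxylase gene, differed by 0.78 ± 0.24, Cyp27a1, a sterol 27-hydroxylase gene, by 0.51 ± 0.17, and the receptor gene Vdr by -0.66 ± 0.48. Among 4 genes of proteins that salvage albumin or retinol binding protein, 0 passed: Fcgrt, the neonatal Fc receptor that returns albumin to the circulation, differed by -0.27 ± 0.25, its subunit B2m by -0.39 ± 0.17, and the endocytic receptor gene Cubn by 0.20 ± 0.32, with 1 Sham-Sham value at the floor.

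A list of hepatocyte transcription factors gave 0 calls among 12 measured genes in each comparison. Its median was 0.45 in Burn-CLP and 0.22 in Sham-CLP against Sham-Sham. The part of these factors in the carrier protein signals was not tested. Nr1h4, the bile acid receptor FXR gene, had a mean signal of 638 ± 161 in Burn-CLP, 1300.3 ± 96.5 in Sham-CLP and 1158 ± 47.8 in Sham-Sham. Its log2 change was -0.89 ± 0.20 in Burn-CLP against Sham-Sham (adjusted p = 0.0687, limma) and -1.05 ± 0.20 against Sham-CLP (adjusted p = 0.179, limma). Dbp, a clock-controlled factor first found through the albumin promoter, differed by 1.00 ± 0.29 (adjusted p = 0.127, limma, 2 Sham-Sham values at the floor), and Foxa3 by 0.58 ± 0.18 (adjusted p = 0.139, limma). Cebpa, chosen after its value was seen, had a mean signal of 580 ± 44.4 in Burn-CLP, 1046 ± 137 in Sham-CLP and 872 ± 156 in Sham-Sham. Its log2 change was -0.85 ± 0.19 in Burn-CLP against Sham-CLP (adjusted p = 0.293, limma) and -0.58 ± 0.19 against Sham-Sham (adjusted p = 0.161, limma). The other C/EBP genes of the list, Cebpb and Cebpd, went the other way. In Burn-CLP they differed by 0.67 ± 0.35 and 0.70 ± 0.27 against Sham-CLP, and by 0.77 ± 0.35 and 0.52 ± 0.27 against Sham-Sham.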

How the data were processed

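Whole rat liver RNA was measured on 9 arrays, 3 per group by sample title. The deposited values are intensity values, linear and scaled per array; the values themselves show this, and no source used here names the software behind them. Genes come from the supplied platform annotation, updated to GRCr8 RefSeq symbols through Entrez identifiers for 12748 probe sets; 12783 probe sets had 1 symbol, 312 several and 2771 none.

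All 15923 probe sets were quantile normalized, values under the 20th percentile (64.3) were set to it, log2 was taken, 57 control probe sets were left out, and the 13535 probe sets above that floor on 3 or more arrays were kept for testing. limma 3.58.1 in R 4.3.3 (lmFit, eBayes) was fitted on all 9 arrays, with Benjamini-Hochberg adjustment over all tested and a threshold of 0.05. Arrays have no read depth; their number limits precision, and an exact permutation test of 3 against 3 cannot go below 0.1. Lists used each gene's brightest probe set. Each list names its called genes and the 3 with the smallest p in Burn-CLP against Sham-Sham. Steps were tested on simulated data. Members, lists and promoter letters were chosen with earlier results of these data known. Same-numbered arrays did not deviate together: 0 of 9 such pairs had a correlation over 0.1. The closing section gives the alternatives.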

Additional observations from a re-analysis of the deposited data

How the results depend on the processing

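No carrier protein probe set was called in any comparison under any alternative run but 1: with an intensity trend and robust shrinkage, 1 was called in Burn-CLP against Sham-Sham (Afm, adjusted p = 0.0364, limma), where 317 probe sets were called in all, against 101 in the main setting. That table count was also 53 with a floor at the 10th percentile, 13 with only the groups compared, 262 with array weights, 59 with the replicate number as a block, and 19 to 645 with each array left out (19 without Burn-CLP 1 and likewise without Burn-CLP 2, 221 without Burn-CLP 3, 28 to 29 without Sham-Sham 1 or 2, 645 without Sham-Sham 3, and 37, 42 and 75 without Sham-CLP 2, 1 and 3). For Sham-CLP against Sham-Sham it was 8, and 4 with the deposited scaling or the replicate block, 69 with array weights, 4 to 13 with each other array left out and 347 without Sham-Sham 3; for Burn-CLP against Sham-CLP it was 2, and 0 to 47 over the alternatives, the highest with array weights, and 36 without Burn-CLP 3. With the replicate block no carrier protein call changed (Afm -0.98, adjusted p = 0.101). The carrier protein median moved to 0.20 in Sham-CLP against Sham-Sham and to -0.39 in Burn-CLP against Sham-CLP with the deposited scaling, and lay between -0.19 and -0.073 in Burn-CLP against Sham-CLP with each array left out.

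The signs of some estimates turned, none of them past the threshold. With the deposited scaling Sham-CLP minus Sham-Sham became 0.20 for the brighter Alb probe set and for Ttr, 0.24 for Ahsg, 0.076 for Afm and 0.10 for Rbp4. Burn-CLP minus Sham-CLP became -0.36 for Alb, -0.27 for the brighter Gc probe set and -0.095 for Rbp4. Quantile normalization by construction holds the brightest probe set of an array, here often Alb, at a fixed value. Rbp4 in Burn-CLP minus Sham-Sham became 0.0086 with the deposited scaling, 0.011 with cyclic loess and 0.094 with array weights. Array weights gave -0.026 for the brighter Gc probe set in Sham-CLP minus Sham-Sham, and cyclic loess gave -0.052 for Alb in Burn-CLP minus Sham-CLP. With each array left out, Rbp4 ran from -0.10 to 0.075 in Burn-CLP minus Sham-Sham. In Sham-CLP minus Sham-Sham, Alb ran from -0.043 to 0.029 and the brighter Gc probe set from -0.00066 to 0.063. In Burn-CLP minus Sham-CLP, Alb ran from -0.029 to 0.041, the brighter Gc probe set from -0.0032 to 0.046 and the dimmer Gc probe set from -0.19 to 0.19. The cause of these turns was not tested. Within-array ratios were also taken with quantile normalized signals, an alternative chosen after seeing the data. The Burn-CLP minus Sham-Sham difference to Alb moved to -0.16 for Ahsg and to 0.04 for the brighter Gc probe set. Burn-CLP minus Sham-CLP moved to -0.26 for the dimmer Alb probe set. With the brighter Alb probe set held near a fixed value, these differences mostly repeat each probe set's own normalized change.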
